A study of Mus musculus with 4 samples.

Results

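Notch signalling passes messages between touching cells. A ligand of the Delta or Jagged family on the sending cell pulls on a Notch receptor of its neighbour, proteases then cut the receptor, and the freed intracellular part enters the nucleus. There it joins the DNA-binding protein encoded by Rbpj and switches on repressors of the Hes and Hey families. In skeletal muscle the pathway is known for holding satellite cells, the stem cells of muscle, in their quiescent state and for opposing myogenic differentiation.

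The genes described here are 10 components of this pathway, taken by symbol from a table of ribosome-protected signal that listed 55573 genes. They are the receptors Notch1, Notch2 and Notch3, the ligands Dll1, Jag1 and Jag2, the mediator Rbpj, and the targets Hes1, Hey1 and Heyl. Each symbol matched a single entry, and all 10 were among the 11363 genes tested, those whose RPKM averaged 1 or more. RPKM counts the reads on a gene, scaled by the gene's length and by the size of the library.

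Primary myoblasts, the muscle precursors that grow from digested muscle, came from 3-week-old mice and were collected on day 2 of proliferation in medium with FGF. The control mice (WT, 2 libraries) were Pax7-CreERT2/+ littermates, and the knockout mice (KO, 2 libraries) were Pax7-CreERT2/+; eIF5A f/f, so both groups carried the Cre allele and tamoxifen induced the deletion. Pax7 drives this Cre in satellite cells, and other cells of a muscle culture keep Eif5a, the gene for the hypusine-bearing translation factor eIF5A. The sample titles call the assay Polysome-Seq, while the extraction protocol in the labels describes RNase I digestion and the purification of ribosome-protected fragments, and the values are named after that protocol here. No RNA level of the same cells was used here, so a change in signal can come from the mRNA or from its translation. No label says whether the libraries of a group came from separate cultures or animals. The p-values therefore measure only the spread between these libraries, which may be technical.

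Recovered reads numbered 642429 to 704006 per library. The library sizes behind the deposited RPKM were not these totals: they were 602863 and 471136 in WT, below the totals, and 906990 and 807705 in KO, above them, which lowers KO relative to WT compared with scaling by the totals. Protein-coding genes took 41.5% and 33.9% of WT reads and 65.4% and 59.2% of KO reads. The signal of Eif5a itself was 34.9 and 65.2 RPKM in WT and 60.3 and 59.4 RPKM in KO, so the label could not be checked from this gene (log2 fold change 0.32, SE 0.484, limma adjusted p = 0.839, and -0.12 without WT library 1). Differences below are therefore between the libraries labelled KO and those labelled WT. All 10 myoblast markers were read, 9 of them in every library, with summed levels of 432 and 301 RPKM in WT and 190 and 224 RPKM in KO, and 9 of the 10 lay below 0 on the log2 fold change scale (median -1.15, 7 lower in KO without overlap, where 20.3% of all tested genes were lower and 20.1% higher in this way). All 10 endothelial markers were also read in every library, with sums of 278 and 409 RPKM in WT and 385 and 476 RPKM in KO, and 8 of them were above 0 (median log2 fold change 0.46, 6 higher in KO without overlap). The fibroblast sums were 627 and 419 RPKM in WT and 1052 and 499 RPKM in KO, with 8 of 10 markers above 0 (median 0.54, 4 higher and 1 lower without overlap). The 8 cell cycle genes were all above 0 (median log2 fold change 0.88, 5 higher in KO without overlap), with sums of 48.4 and 88.8 RPKM in WT and 110 and 97.5 RPKM in KO. Of the 8 immune markers, 4 were read in every library and Itgam and C1qa were at 0 throughout. The immune sums were 45.7 and 60.6 RPKM in WT and 56.9 and 49.5 RPKM in KO, with 2 of the 4 tested markers below 0 and 2 above. These cell types can express Notch components too, and the part of cell composition or of cycling in the results below was not tested. In bulk libraries, fewer cells of a type and less RNA per cell cannot be told apart.

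Because eIF5A is known to help ribosomes through consecutive prolines, the proline runs of the 10 proteins are shown first. A run of at least 3 proline codons was present in the longest coding sequence of 7 of the 10 genes and of 25.8% of all tested protein-coding genes with a coding sequence. Hes1, Notch3, Notch1, Jag2 and Heyl are printed because they hold the longest runs of the group or are the genes whose signal differed most. Each line reads 5′ to 3′ along the coding strand, with the proline codons in capitals and the codons on either side in lower case (build GRCm38, GENCODE M21 gene models).
Hes1, codons 166 to 171 (chr16:30067066-30067101, plus strand): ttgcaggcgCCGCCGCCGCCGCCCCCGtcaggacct
Hes1, codons 184 to 188 (chr16:30067120-30067152, plus strand): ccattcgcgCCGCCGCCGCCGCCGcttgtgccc
Notch3, codons 18 to 23 (chr17:32166716-32166751, minus strand): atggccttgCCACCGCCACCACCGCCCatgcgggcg
Notch1, codons 2258 to 2261 (chr2:26460335-26460364, minus strand): gcctttgagCCACCCCCGCCAcgcctctcc
Jag2, codons 1165 to 1167 (chr12:112909123-112909149, minus strand): aacttcacaCCGCCGCCCcgcagggca
Heyl, codons 257 to 259 (chr4:123246409-123246435, plus strand): ccagctgccCCTCCACCCacagccctt

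Hes1 and Notch3 thus carry runs of 6 prolines, a length found in 2.39% of the tested protein-coding genes as 6 or more. Notch2, Jag1 and Hey1 have no run over 2. The table gives 1 value per gene, so the position of ribosomes along these stretches was not analysed here.

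None of the 10 genes differed between the groups at a limma adjusted p under 0.05, where 0.106% of all tested genes did (12 of 11363, none of them protein-coding and each with 2 to 8 reads). At an unadjusted p under 0.05, 1 of the 10 was lower in KO, namely Jag2, and none was higher. Across all tested genes 4.46% were lower and 2.86% higher at that threshold. limma-voom on the recovered reads likewise called none of the 10 after adjustment, with Jag2 and Heyl lower at an unadjusted p under 0.05. The shares above are from limma, and none is given here for the 9179 genes that limma-voom covered. In 3 genes, Notch3, Jag2 and Heyl, both KO values lay below both WT values, and in none did both lie above. Such separation was found in 20.3% of all tested genes for lower and in 20.1% for higher KO values. The log2 fold change was below 0 in 8 of the 10 genes, with a median of -0.19 against 0.00 over all tested genes. That count depended on the processing. With the trend on coding GC content removed, Notch1, Notch2 and Dll1 were above 0. With libraries scaled to the same read sum, Jag1 and Rbpj were above 0 as well, where the median over all tested genes was 0.50.

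**Figure D1:**
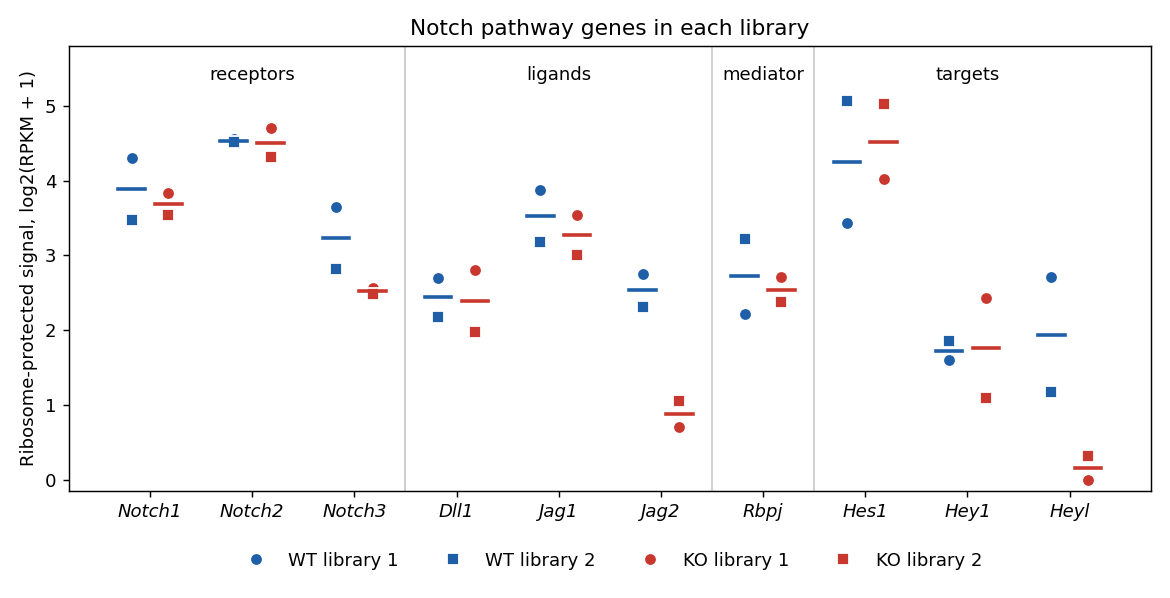
RPKM on a log2(RPKM + 1) axis for the 10 Notch pathway genes, grouped as receptors, ligands, mediator and targets, with a point for each WT and KO library and a bar at the group mean on that scale. Jag2, Heyl and Notch3 are the genes whose KO points both sit below both WT points.

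The receptors are large single-pass membrane proteins cut on ligand binding. Notch2 (chr3:98013527-98150361, plus strand, 34 exons) had 22.5 and 21.9 RPKM in WT and 25.0 and 18.9 RPKM in KO. Its WT values lay inside the KO range, and the log2 fold change was -0.03 (SE 0.396, limma adjusted p = 0.987). Its mean RPKM was the highest of these receptors in both groups, at the 90.4th percentile of tested protein-coding genes in WT and the 88.8th in KO. By reads alone, Notch1 was ahead of Notch2 in WT library 1 (161 against 146).

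Notch1 (chr2:26457903-26516663, minus strand, 34 exons) had 18.8 and 10.1 RPKM in WT and 13.2 and 10.6 RPKM in KO. The groups overlapped, and the WT libraries were further from each other than the KO libraries were. The log2 fold change was -0.21 (SE 0.446, limma adjusted p = 0.891), and it was 0.21 without WT library 1.

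Notch3 (chr17:32120820-32166852, minus strand, 33 exons), a receptor best known from pericytes and vascular smooth muscle, had 11.5 and 6.04 RPKM in WT and 4.91 and 4.59 RPKM in KO. Both KO values were lower, and the wider gap was between the WT libraries themselves. The log2 fold change of -0.71 (SE 0.427) did not pass the test (limma unadjusted p = 0.151, adjusted p = 0.697), and leaving out the first or the second WT library gave -0.29 or -1.12. Pooled reads, scaled by the deposited library sizes, gave 1.91 times the signal in WT as in KO (95% interval 1.36 to 2.69), and 1.27 times without WT library 1 (0.753 to 2.07). These intervals cover counting error only. With the libraries scaled to the same read sum, the log2 fold change was -0.18, where the median of all genes was 0.50. The separation of the groups was then lost. WT library 2 had 23 Notch3 reads of 642429, against 36 of 704006 and 30 of 650210 in KO. An antisense lncRNA, Gm17276, overlaps Notch3. Its reads numbered 21 and 16 in WT, then 10 and 8 in KO, against 56, 23, 36 and 30 for Notch3. The strand rule of the counting is not given in the sources used here, so reads of the pair cannot be told apart. The 9 other pericyte and smooth muscle markers summed to 177 and 135 RPKM in WT and 116 and 124 RPKM in KO (median log2 fold change -0.09 over 7 tested). Of these, Rgs5 (-0.63), Acta2 (-0.59) and Abcc9 (-0.84) were lower without overlap and Kcnj8 (0.19) was higher. Over all tested genes, 20.3% were lower and 20.1% higher in this way. The groups overlapped for Pdgfrb (-0.09), Mcam (0.09) and Cspg4 (0.32). The part of these markers in the Notch3 values was not tested.

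The ligands sit on the sending cell. Jag2 (chr12:112907819-112929776, minus strand, 26 exons) encodes a Jagged ligand and showed the smallest unadjusted p of the 10. Its signal was 5.72 and 3.96 RPKM in WT and 0.633 and 1.07 RPKM in KO, from 24, 13, 4 and 6 reads. The groups did not overlap, and the lower WT value was 3.71 times the higher KO value. Counting intervals (95%, exact Poisson) were 3.66 to 8.50 and 2.11 to 6.77 RPKM in WT, against 0.173 to 1.62 and 0.391 to 2.32 RPKM in KO. The log2 fold change was -1.65 (SE 0.449, limma unadjusted p = 0.011, adjusted p = 0.629). The unadjusted call was lost when either KO library was left out (log2 fold change -1.48 with limma unadjusted p = 0.092 without the first, and -1.82 with 0.055 without the second), in a fit that takes the lone KO library to vary as the WT libraries do. Pooled reads, scaled by the deposited library sizes, gave a WT to KO ratio of 5.91 (95% interval 2.88 to 13.3), or 4.73 and 6.83 with the first or the second WT library left out. With the libraries scaled to the same read sum, the log2 fold change was -1.26. The level stood at the 50.3rd percentile of tested protein-coding genes in WT and at the 4.02nd in KO.

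Jag1 (chr2:137081456-137116644, minus strand, 26 exons), the other Jagged ligand, had 13.7 and 8.01 RPKM in WT and 10.6 and 7.01 RPKM in KO. The groups overlapped and the log2 fold change was -0.25 (SE 0.442, limma adjusted p = 0.861), with 0.10 without WT library 1 and -0.61 without WT library 2. Dll1 (chr17:15367354-15376872, minus strand, 11 exons), a Delta ligand, had 5.50 and 3.52 RPKM in WT and 6.01 and 2.93 RPKM in KO. Its WT values lay between the KO values, with a log2 fold change of -0.05 (SE 0.455, limma adjusted p = 0.980).

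Rbpj (chr5:53466152-53657362, plus strand, 11 exons) encodes the protein through which all receptors reach DNA. Its signal was 3.64 and 8.32 RPKM in WT and 5.53 and 4.18 RPKM in KO, with both KO values inside the WT range. Between the groups the log2 fold change was -0.18 (SE 0.467, limma adjusted p = 0.913). Its processed pseudogenes Rbpj-ps1 and Rbpj-ps3 had 0 reads in every library.

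The targets are basic helix-loop-helix repressors. Hes1 (chr16:30064384-30067796, plus strand, 4 exons) has 3 proline runs, of which the 2 longest are printed above. It had 9.77 and 32.3 RPKM in WT and 15.2 and 31.6 RPKM in KO. In each group 1 library was more than 2 times the other, and the groups overlapped throughout. Its log2 fold change was 0.28 (SE 0.675, limma adjusted p = 0.906) and -0.54 without WT library 1.

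Hey1 (chr3:8663359-8667256, minus strand, 5 exons) had 2.03 and 2.60 RPKM in WT and 4.39 and 1.14 RPKM in KO, from 4, 4, 13 and 3 reads. At this depth no difference was detectable (log2 fold change 0.04, SE 0.571, limma adjusted p = 0.987).

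Heyl (chr4:123233556-123249875, plus strand, 5 exons) had 5.52 and 1.25 RPKM in WT, from 17 and 3 reads. In KO it was listed at 0 in library 1, where 3 reads would have been 0.647 RPKM, and at 0.242 RPKM (1 read) in library 2. Most of its reads were thus in a single WT library. The log2 fold change was -1.78 (SE 0.778, limma unadjusted p = 0.063, adjusted p = 0.675) and -1.01 without WT library 1. With the deposited library sizes, the counting interval of the WT to KO ratio ran from 5.11 to 1323 with all libraries and from 0.877 to 573 without WT library 1. Myog, a marker of differentiating myoblasts, was also mostly read in WT library 1, with 82 reads there, 3 in WT library 2, and 1 and 2 in KO. Whether Heyl and Myog were read in the same cells was not tested.

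**Figure D2:**
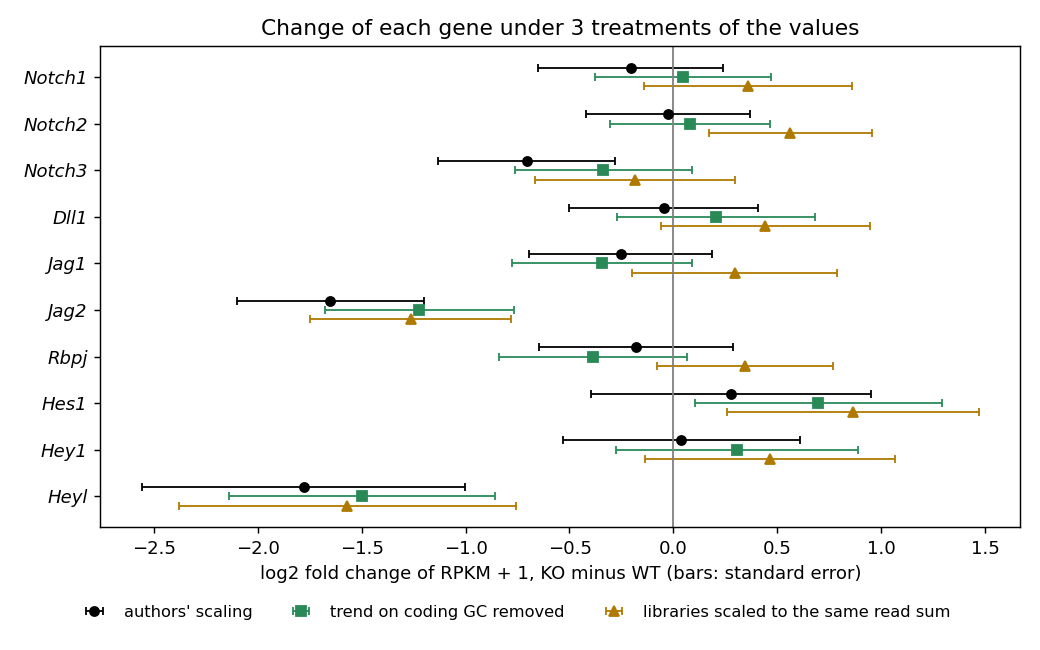
Log2 fold change of RPKM + 1 (KO minus WT) for the 10 genes, with bars of 1 standard error from limma. Circles show the authors' scaling, squares the trend on coding GC removed, and triangles the libraries scaled to the same read sum. With the authors' scaling, Jag2 (-1.65) and Heyl (-1.78) lie furthest from 0, Notch3 follows at -0.71, and the other 7 lie between -0.25 and 0.28. In the squares and triangles Hes1 is at 0.70 and 0.86, and Notch3 at -0.34 and -0.18.

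Reads were also expressed as shares of the genes of 1 role within each library, which does not depend on the scaling between libraries. This measure was chosen after the values had been seen. Of the reads on Jag1 and Jag2, Jag2 took 33.3% (95% Wilson interval 23.5 to 44.8) and 37.1% (23.2 to 53.7) in WT. In KO it took 6.67% (2.62 to 15.9) and 15.4% (7.25 to 29.7). The group means were 35.2% ± 2.69 (SD, n = 2) and 11.0% ± 6.16 (SD, n = 2), with a p of 0.333 in an exact two-sided permutation test, the smallest value that 2 against 2 libraries allow. The interval of KO library 2 overlapped those of both WT libraries, and that of KO library 1 overlapped neither. Among the 3 ligands, Jag1 made up 54.1% of the reads in WT and 67.4% in KO, and Dll1 16.5% and 24.1% (means, n = 2 each). The shares of Jag1 and Dll1 were higher in both KO libraries. The 3 shares of a library sum to the whole, so a lower share of Jag2 raises Jag1 and Dll1 combined, though not necessarily each of them.

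Notch3 made up 15.4% and 11.4% of receptor reads in WT and 7.98% and 9.46% in KO, and the exact permutation p was again 0.333. Notch2 held 40.2% and 55.0% in WT and 54.1% and 52.1% in KO, with no separation of the groups. Heyl accounted for 51.5% and 7.89% of the reads on the 3 targets in WT. In KO it accounted for 0 of 41 reads, where 3 reads would be 7.32% and the Wilson interval reaches 8.57%, and for 1.79% in the other library. Both WT shares were above both KO shares, and the size of the gap rested on WT library 1, as it did for the RPKM.

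**Figure D3:**
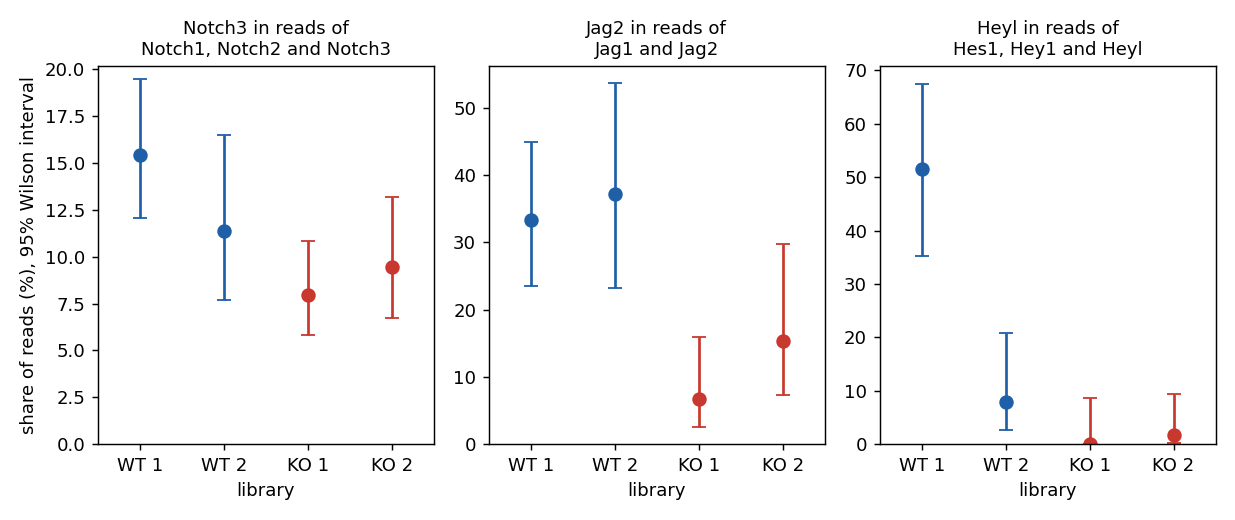
Reads of Notch3, Jag2 and Heyl as a percentage of the reads on the 3 receptors, the Jagged ligands and the 3 targets in each WT (blue) and KO (red) library, with 95% Wilson intervals that cover counting error only. The share of Jag2 among the Jagged ligands was 33.3% and 37.1% in WT and 6.67% and 15.4% in KO.

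Ordered by mean RPKM, the WT libraries gave Notch2, Hes1, Notch1, Jag1, Notch3, Rbpj, Jag2, Dll1, Heyl and Hey1, and every pair of neighbours in that order overlapped. The KO libraries gave Hes1, Notch2, Notch1, Jag1, Rbpj, Notch3, Dll1, Hey1, Jag2 and Heyl. There the values did not overlap between Notch2 and Notch1, Notch1 and Jag1, Jag1 and Rbpj, Hey1 and Jag2, or Jag2 and Heyl. Jag2 moved from 7th to 9th place, below Dll1 and Hey1. These RPKM were divided by the whole gene length. The longest coding sequence was 1578 of 12750 bases in Rbpj and 7419 of 10782 in Notch2. Ranks and percentiles between genes therefore also depend on the length outside the coding sequence.

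Base composition moved with the signal across the whole table. Over 9866 protein-coding genes the log2 fold change was lower at higher GC content of the coding sequence (Spearman's rho -0.36, a description across genes that share the same 4 libraries). By decile of GC content, the median ran from 0.37 at the lowest to -0.48 at the highest. Of the 10 Notch genes, 8 were above the median GC content of 53.2%, and Rbpj (48.9%) and Jag1 (52.9%) were below it. Jag2, at 62.4%, Hes1, at 62.2%, and Notch3, at 61.0%, were in the highest decile. With the trend on GC content removed, the log2 fold change was -1.22 for Jag2 (limma unadjusted p = 0.026, adjusted p = 0.725, with 0.244 to 0.944 over its alternatives), -1.50 for Heyl and -0.34 for Notch3. For Hes1 it was 0.70. The 7 genes with a proline run had a median log2 fold change of -0.21 and the 3 without -0.03, against -0.13 and 0.12 over all tested protein-coding genes, where GC content was not held constant. The 2 genes with runs of 6, Hes1 and Notch3, differed in sign.

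**Figure D4:**
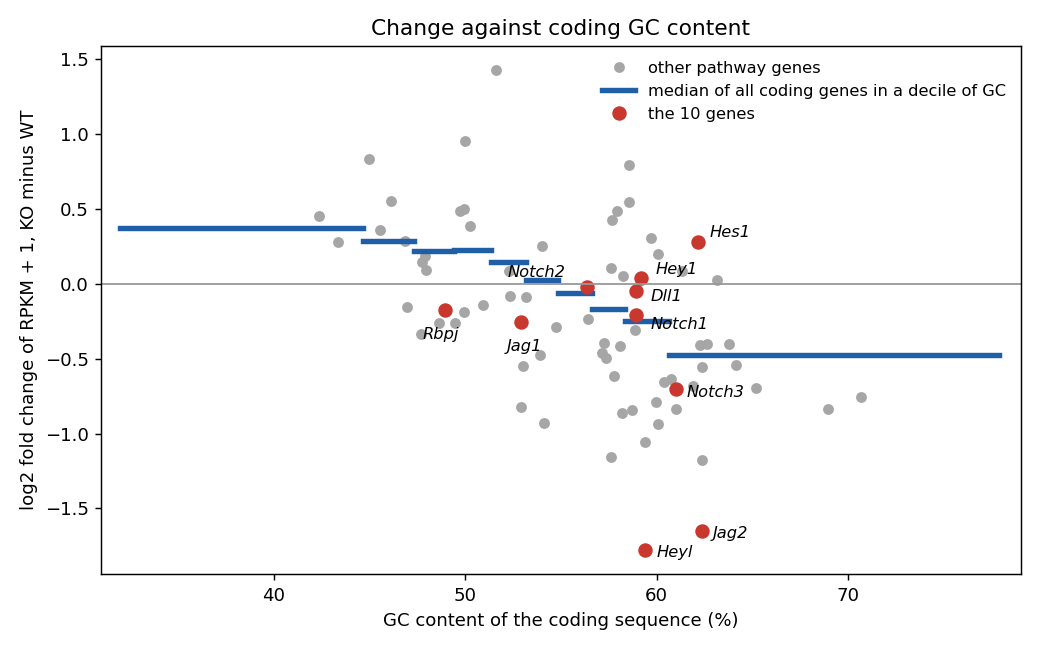
Log2 fold change of RPKM + 1 (KO minus WT) against the GC content of the coding sequence (%). Red points are the 10 genes, grey points the other tested genes of the pathway, and blue bars the median of all tested protein-coding genes in each decile of GC content, which runs from 0.37 to -0.48. Jag2 and Heyl lie below the bar of their decile and Hes1 lies above it.

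A list of 78 other pathway genes was read from the same fit. Of these, 77 were in the table under the listed symbol and 65 were tested. None passed at a limma adjusted p under 0.05 (0.672 to 0.995), and limma-voom also called none. At an unadjusted p under 0.05, limma had 2 lower (Epn1 and Dtx4) and 1 higher (Hdac1), and limma-voom had 3 lower and 1 higher. The limma shares over all tested genes were 4.46% lower and 2.86% higher, so these counts are near the background. The median log2 fold change was -0.26, with 17 genes lower in KO without overlap, 7 higher and 41 overlapping, beside 20.3% lower and 20.1% higher over all tested genes. With 1 library left out, several of the values below moved by more than 1.5 times, and these are given with that range.

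Among the other receptors and ligands, 4 of 8 were tested. Notch4, a receptor of endothelium, had 11.7 and 8.95 RPKM in WT and 6.70 and 6.60 RPKM in KO (log2 fold change -0.56). The Delta ligand Dll4, also endothelial, had 17.7 and 16.0 RPKM in WT and 32.3 and 16.1 RPKM in KO, above all 3 ligands described above in each library. Mfap5, a microfibril protein that binds Jagged ligands, had 2.31 and 5.91 RPKM in WT and 20.9 and 6.55 RPKM in KO (log2 fold change 1.43, 0.90 when WT library 1 was left out, and 0.66 or 2.19 when the first or second KO library was). Dll3 was listed at 0 in all 4 libraries.

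Of the 8 tested proteases and γ-secretase subunits, 4 were below and 4 above 0 (median -0.03). Psenen, a γ-secretase subunit, had 19.5 and 28.3 RPKM in WT and 12.1 and 11.7 RPKM in KO (log2 fold change -0.93). Furin, which cleaves Notch on its way to the surface, had a log2 fold change of -0.94 (-0.33 without WT library 1 and -1.54 without WT library 2). Adam10, which makes the first cut after ligand binding, had 0.83 (1.30 without WT library 1 and 0.35 without WT library 2). Both were without overlap. The 6 glycosyltransferases had a median of -0.40, with Poglut1, an enzyme that glucosylates Notch, lower without overlap (-0.34, and -0.19 without KO library 2).

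Genes of ligand and receptor endocytosis and ubiquitin ligases had a median of -0.26 over 13 tested, with 6 lower in KO without overlap and 1 higher (20.3% and 20.1% over all tested genes). Epn1 encodes epsin 1, an adaptor for the endocytosis that ligands need in the sending cell. It had 39.0 and 30.2 RPKM in WT and 11.0 and 19.4 RPKM in KO, with no overlap (log2 fold change -1.18, SE 0.453, limma adjusted p = 0.672). The Deltex family member Dtx4 had 6.67 and 3.25 RPKM in WT and 1.27 and 1.90 RPKM in KO (log2 fold change -1.16, limma adjusted p = 0.672, and -0.73 without WT library 1). Neurl1b (-0.84) and Mib2 (-0.83), ubiquitin ligases that act on ligands, and Dtx3 (-0.64) were lower without overlap and did not pass the test. Neurl1b was at -0.56 without WT library 1 or KO library 1, and Dtx3 at -0.30 without KO library 1 and -0.97 without KO library 2.

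The 8 nuclear coactivators had a median of -0.47 and 7 of them lay below 0. Maml3, a Mastermind coactivator, had -0.87 (-0.38 without WT library 1 and -1.35 without WT library 2). The acetyltransferase Crebbp had -0.83 (-0.35 or -1.30 with the first or second WT library left out, -0.52 without KO library 2). The 15 tested corepressors had a median of -0.26. Hdac1, a histone deacetylase, had 2.89 and 3.70 RPKM in WT and 7.36 and 7.19 RPKM in KO, without overlap (log2 fold change 0.95, limma adjusted p = 0.672). The corepressor Spen (-0.61, with -0.15 without WT library 1 and -1.08 without WT library 2) was lower without overlap, and L3mbtl3 (0.49), which binds RBPJ, was higher.

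The 11 other targets tested had a median of 0.05. Hes7, known for the segmentation clock of the embryo, was read at 559 and 486 RPKM in WT and 238 and 398 RPKM in KO (log2 fold change -0.76, and -0.39 without KO library 1), above each of the 10 genes in each library. The gene-level table does not show where in Hes7 these reads lie. Col6a1, a collagen gene, had a log2 fold change of 0.48 without overlap (0.31 without WT library 2 and 0.27 without KO library 1). Hes5 and Hey2 were listed at 0 in all 4 libraries.

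GC content and scaling moved several of these values by more than 1.5 times. With the trend on GC content removed, Epn1 was at -0.75 (limma unadjusted p = 0.090), Dtx4 at -0.98 (0.069) and Hdac1 at 0.77 (0.086), so none of these 3 kept its unadjusted call. Psenen gained such a call there, at -0.96 (limma unadjusted p = 0.038, adjusted p = 0.732). In that fit Notch4 was at -0.13, Furin at -0.62 and Adam10 at 0.52. Poglut1 was at -0.57, Neurl1b at -0.27, Mib2 at -0.47 and Dtx3 at -0.28, while L3mbtl3 was at 0.29 and Hes7 at -0.16. With the libraries scaled to the same sum, which put the median of all genes at 0.50, Epn1 was at -0.59, Dtx4 at -0.73, Psenen at -0.35, Notch4 at -0.01 and Hdac1 at 1.46. Over the alternatives that kept every library, Spen ran from -0.72 to -0.08, Crebbp from -0.94 to -0.30 and Dtx3 from -0.74 to -0.08. In the same fits Hes7 ran from -0.87 to -0.14, L3mbtl3 from 0.29 to 0.95 and Col6a1 from 0.37 to 1.08.

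**Figure D5:**
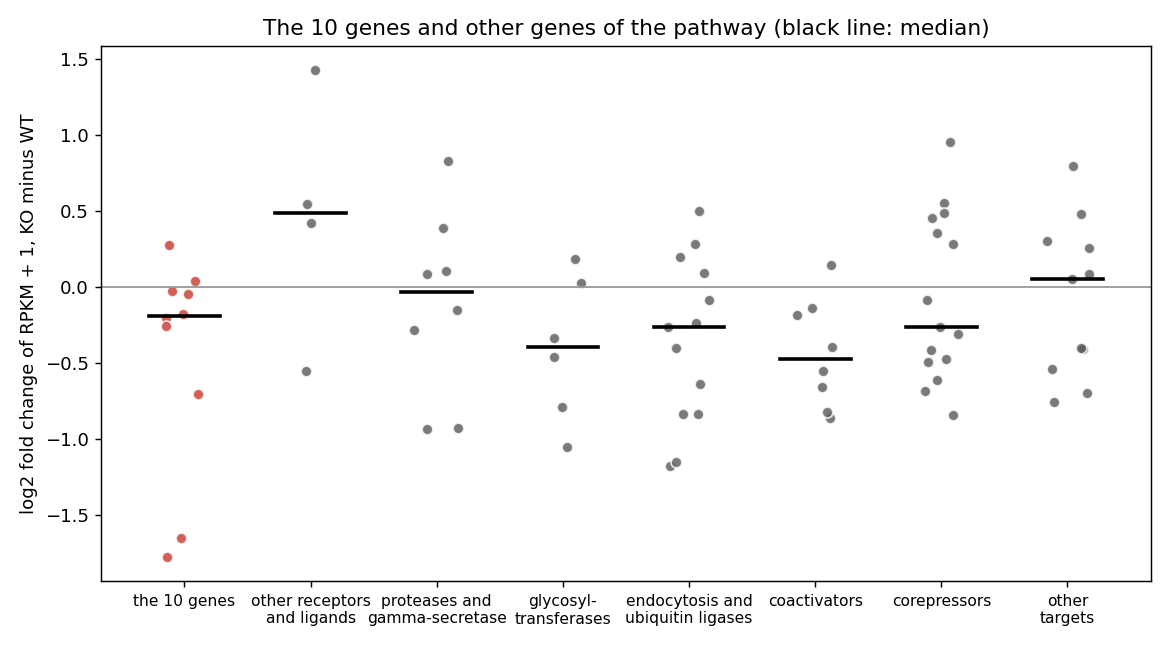
Log2 fold change of RPKM + 1 (KO minus WT) of every tested gene of the pathway by role, 1 point a gene (red for the 10 genes, grey for the others), with a bar at each median. The grey medians run from -0.47 for the 8 nuclear coactivators to 0.49 for the 4 other receptors and ligands.

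For each of the 10 genes, the pathway gene with the most similar profile was found as the smallest root mean square difference of centred log2(RPKM + 1) over the 4 libraries, among 69 candidates with at least 20 reads, which include the other genes described. Jag2 lay nearest to Epn1 (0.283) and Heyl nearest to Jag2 (0.394). Jag1 lay nearest to Ncor1 (0.0335), Notch1 to Ep300 (0.0557), Notch3 to Spen (0.0574) and Notch2 to Adam17 (0.0940). The profiles of Dll1, Rbpj, Hey1 and Hes1 lay nearest to those of Jag1, Snw1, Bhlhe40 and Bend6. With 4 libraries this is a description of shape only.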

How the data were processed

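Ribosome-protected fragments were prepared with cycloheximide, RNase I and a sizing column, and the authors removed rRNA and tRNA reads, mapped with TopHat2 (mm10, per the submitters' processing notes) and counted with HTSeq. The deposited values are RPKM per gene and library. Multiplying by gene length and by a library size fixed for each library (from the smallest step of its values) gave whole reads for 100% of values above 0 (tolerance 0.02 reads), and these recovered reads were used for counting intervals and limma-voom. All value columns mapped to a sample (0 unmapped), with groups and replicate numbers from the titles.

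The main test was limma 3.58.1 (R 4.3.3; lmFit, eBayes with trend) on log2(RPKM + 1), restricted to genes averaging 1 RPKM or more, with Benjamini-Hochberg adjustment over all tested genes. The added 1 makes the fold changes of weakly read genes smaller than those of their RPKM. The code was tested on simulated data. The text names all 10 genes, and in each role of the other pathway genes those at an unadjusted p under 0.05, then up to 3 more with at least 20 reads, by size of change among those without overlap between groups. A gene that this rule names is not reported here. Dll3, Dll4, Hes5 and Hey2 were named after their values were seen. The genes and lists were chosen with earlier results of these data known. Coding sequences came from GENCODE M21, whose identifiers matched 99.7% of the table's, with the same coordinates for 99.7% of those. Same-numbered libraries did not deviate together (correlation 0.0575 over 11363 genes), so the main fit has no block.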

Additional observations from a re-analysis of the deposited data

How the results depend on the processing

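The direction held under every alternative run for Jag2 (log2 fold change -2.48 to -1.22), Heyl (-4.02 to -1.01) and Notch3 (-1.12 to -0.18), and adjusted p stayed above 0.05 for all 10 genes. With libraries scaled to the same sum, the median of all genes moved to 0.50 and the log2 fold change became 0.36 for Notch1, 0.56 for Notch2, 0.44 for Dll1, 0.30 for Jag1, 0.34 for Rbpj and 0.12 for Poglut1. Relative to that median, Notch1 was at -0.14, Notch2 at 0.07, Dll1 at -0.05, Jag1 at -0.20, Rbpj at -0.15 and Jag2 at -1.76. Removing the trend on GC content gave 0.044 for Notch1, 0.079 for Notch2 and 0.20 for Dll1. Hey1 was at -0.026 with a pseudocount of 0.1 and at -0.046 when the sums over protein-coding genes were equalised. Leaving out 1 library moved Notch1 between -0.62 and 0.21, Notch2 between -0.22 and 0.16, Dll1 between -0.46 and 0.37, Jag1 between -0.61 and 0.10, Rbpj between -0.68 and 0.32, Hes1 between -0.54 and 1.09, and Hey1 between -0.63 and 0.71. The sign turned without WT library 1 for Notch1 (0.21), Dll1 (0.22), Jag1 (0.10), Hes1 (-0.54) and Hey1 (-0.09). It turned without KO library 2 for Notch2 (0.16), Dll1 (0.37), Jag1 (0.01) and Hes1 (-0.23), without WT library 2 for Rbpj (0.32), and without KO library 1 for Hey1 (-0.63). The number of the 10 genes lower at an unadjusted p under 0.05, 1 as reported, was 2 with a pseudocount of 0.1, with every gene above 0, with limma-voom, with the GC trend removed and with protein-coding genes alone. It was 0 at a minimum mean of 5 RPKM, which leaves Dll1, Jag2, Hey1 and Heyl untested, and 0 to 2 with 1 library left out (0 without either KO library, where Jag2 loses its call). Of the other pathway genes, the number lower (2 as reported) was 1 at 5 RPKM, 0 with the same sum, 1 with the GC trend removed and 0 to 6 with 1 library left out. The number higher (1 as reported) was 0 with every gene above 0, 0 at 5 RPKM, 5 with the same sum, 0 with those protein-coding sums equalised, 0 with the GC trend removed, 2 with protein-coding genes alone and 0 to 1 with 1 library left out. The libraries share only a number. With the replicate number as a block, 0 other pathway genes were lower and 0 higher, and the adjusted p of Jag2 was 0.639. Over all genes, limma called 11 lower and 1 higher as reported, limma-voom 39 and 0, equal protein-coding sums 12 and 1, and every other alternative 0. The use of protein-coding genes alone was added after seeing the data. The cause of these shifts was not tested.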
